A study of Mus musculus with 4 samples.

Results

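The short topologically associating domains (TADs) of 2 deposited TAD lists were described, 1 list from fetal and 1 from adult haematopoietic stem cells (HSCs) of the mouse. They were chosen by the measured length in those lists: a TAD whose end minus start was under 450 kb, on chromosomes 1 to 19. The fetal list held 331 short TADs among 2204 on these chromosomes, and the adult list 311 among 2191, which makes 642 short TADs on these chromosomes. The whole series held 4628 TADs, those of chromosome X included. Contacts between DNA segments were captured by Hi-C, which ligates DNA ends that lie together in the fixed nucleus. The 2 fetal samples came from E14.5 livers and the 2 adult samples from bone marrow of mice 6 to 8 weeks old, all of the strain B6129SF1 and with no further treatment or allele named. Cells of both tissues were sorted as Lin-Sca1+cKit+CD135-. No gene expression was measured, so the sort could not be checked against marker genes. Each list stood for both samples of its cell type, so no value has a replicate error, the number of contacts behind a TAD is unknown, and no test between the cell types was possible.

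A TAD is a stretch of chromosome whose parts meet each other more often than they meet the flanking stretches. In the prevailing view, cohesin extrudes a loop of DNA until it is halted, most often at sites bound by CTCF, and the halting sites appear as TAD boundaries. TADs are nested in practice, and a short domain may be listed as a TAD or as part of a longer TAD depending on how sharply its inner boundary separates contacts. For a list without nested TADs, as both of these are, every stretch is assigned to a single TAD at most, so a short TAD in one list may appear in the other as the same TAD, as part of a longer TAD, as pieces of several TADs, or not at all. The genes and the DNA sequence of these regions were not analysed here.

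Short TADs made up 15.0% of fetal TADs (95% exact Clopper-Pearson interval 13.6 to 16.6) and 14.2% of adult TADs (12.8 to 15.7). Their summed length was 96.6 Mb in the fetal list, or 4.43% of the length in TADs, and 92.8 Mb in the adult list, or 4.40%. Within the limit the lengths were alike in both lists. The median was 300 kb in the fetal list (quartiles 220 and 380) and 310 kb in the adult list (220 and 380). All lengths were multiples of 10 kb, the step of the grid on which boundaries were placed, and ran from 110 to 440 kb. At the minimum of 110 kb stood 5 fetal and 8 adult TADs. Just inside the limit, at 440 kb, there were 17 fetal and 16 adult TADs, and just outside, at 450 kb, 15 and 19. The fetal list thus held 20 more short TADs than the adult list. This difference depended on the limit: under 500 kb both lists held 440 TADs, a difference of 0, and among short TADs of at least 200 kb it was 11.

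The place of each short TAD was then looked up in the other list, to ask what the other stage held there. The commonest finding was the same TAD, defined as a TAD that overlapped the short TAD by at least 80% of both lengths. This was so for 187 of 331 fetal short TADs, or 56.5% (51.0 to 61.9), against 73.8% of fetal TADs of all lengths. It was so for 181 of 311 adult short TADs, or 58.2% (52.5 to 63.7), against 74.3% of all adult TADs. Stricter definitions took these shares below 50%, to 43.2% and 42.8% at an overlap of 90%, and to 45.0% and 45.7% with both ends within 20 kb. Most of the others lay inside 1 longer TAD, defined as a TAD that covered at least 80% of the short TAD and was not the same TAD. This class held 132 fetal short TADs, or 39.9% (34.6 to 45.4), against 15.9% of all fetal TADs, and 96 adult short TADs, or 30.9% (25.8 to 36.3), against 16.5% of all adult TADs. The share inside a longer TAD is tied to length by definition, since a longer TAD has fewer that could hold it.

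The remaining short TADs were few. A further 10 fetal short TADs, or 3.02% (1.46 to 5.49), were spread over several adult TADs of which none covered 80%, against 7.89% of all fetal TADs. In the adult list 30 were spread over several fetal TADs, or 9.65% (6.60 to 13.5), against 8.63% of all adult TADs. The other list had no TAD, meaning that under 20% of the short TAD was covered, for 2 fetal short TADs, against 2.22% of all fetal TADs, and for 4 adult ones, against 0.593% of all adult TADs. These 4 classes took in every short TAD of both lists.

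Length mattered within the short TADs as well. In the fetal list the same TAD was found for 26.2% of 65 TADs of 110 to 190 kb (16.0 to 38.5), 53.1% of 96 TADs of 200 to 290 kb (42.7 to 63.4), 62.9% of 105 TADs of 300 to 390 kb (52.9 to 72.1) and 81.5% of 65 TADs of 400 to 440 kb (70.0 to 90.1). The last of these was level with the 81.4% of 781 TADs of 450 kb to under 800 kb (78.5 to 84.1). The adult shares were 23.2% of 56 (13.0 to 36.4), 55.7% of 88 (44.7 to 66.3), 71.2% of 104 (61.4 to 79.6) and 71.4% of 63 (58.7 to 82.1), against 77.0% of the 843 TADs of 450 kb to under 800 kb (74.0 to 79.8). The lowest shares were thus those of TADs under 200 kb in both lists. Of these, 69.2% of fetal and 66.1% of adult ones lay inside a longer TAD of the other list.

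**Figure D1:**
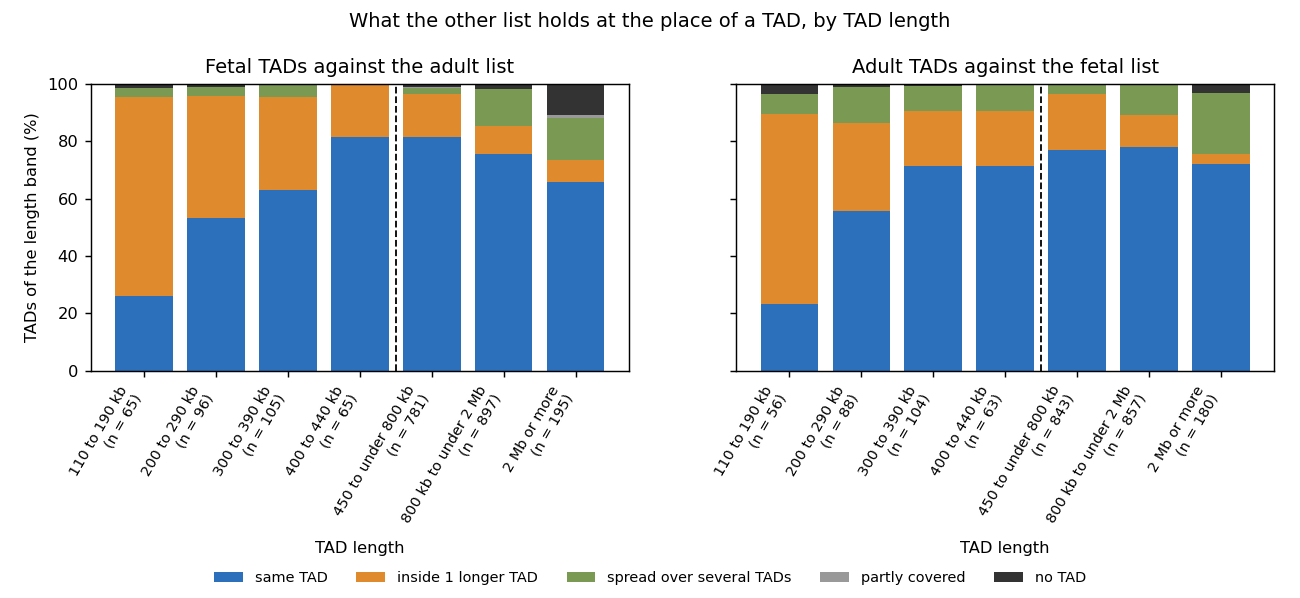
Share of TADs (vertical axis, percent of the TADs in a length band) by what the other list held at their place, for fetal TADs (left) and adult TADs (right) in bands of TAD length. Bands left of the dashed line are short TADs. The blue part, the same TAD, is 26.2% and 23.2% of the TADs of 110 to 190 kb and 81.4% and 77.0% of those of 450 kb to under 800 kb.

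An overlap of 80% is stricter in kilobases for a short TAD than for a long one, so a fixed distance was used as well. With both ends within 40 kb of the ends of a single TAD of the other list, the match held for 54.7% of fetal short TADs (49.1 to 60.1), for 74.3% of those of 450 kb to under 800 kb (71.0 to 77.3), for 63.4% of those of 800 kb to under 2 Mb (60.2 to 66.6) and for 47.2% of those of 2 Mb or more (40.01 to 54.4). The adult shares in the same order were 55.3% (49.6 to 60.9), 70.1% (66.9 to 73.2), 66.0% (62.8 to 69.2) and 51.7% (44.1 to 59.2). By this measure short TADs stood below the middle bands, and their intervals overlapped those of the longest TADs in both lists. By the overlap of 80% they were the lowest band in both lists, with 65.6% (58.5 to 72.3) of fetal and 72.2% (65.1 to 78.6) of adult TADs of 2 Mb or more having the same TAD, and the fetal intervals of these bands overlapped. TADs of a list are not replicates, and these intervals cover counting error only.

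Single ends gave the same order against all TADs. A boundary of the adult list lay no more than 40 kb from 488 of the 662 ends of fetal short TADs, or 73.7% (70.2 to 77.0), against 83.8% of the ends of all fetal TADs. For adult short TADs 471 of 622 ends were so matched, or 75.7% (72.2 to 79.0), against 83.9% for all adult TADs. An end between adjoining TADs is counted with each of them. Both ends were matched for 182 fetal short TADs (55.0%), 1 end for 124 (37.5%) and neither for 25 (7.55%), against 71.2%, 25.1% and 3.68% of all fetal TADs. For adult short TADs both were matched for 176 (56.6%), 1 for 119 (38.3%) and neither for 16 (5.14%), against 70.8%, 26.2% and 3.06% of all adult TADs. Among short TADs without the same TAD in the other list, exactly 1 end was matched for 114 of 144 fetal and 106 of 130 adult ones. Both ends were matched for 5 and 8 of these, since most TADs with both ends matched have the same TAD. No such share was computed for TADs of all lengths, so these counts do not set short TADs apart.

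Among the matched TADs, 169 pairs were short in both lists, which is 51.1% of the fetal and 54.3% of the adult short TADs. In 18 more pairs only the fetal TAD was under 450 kb and in 12 more only the adult one. The 473 places with a short TAD in either list thus included 169 with a matched short TAD in both. The coordinates were identical in 14 of the 169 pairs.

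In these 169 pairs the adult TAD was more often the longer. It was longer in 104 pairs, the fetal TAD was longer in 41, and the lengths were equal in 24. Of the unequal pairs 71.7% (63.7 to 78.9) had the longer TAD in the adult list. The median difference, adult minus fetal, was 10 kb, a single step of the grid, and the mean was 9.17 kb. Fetal TADs of these pairs had a median of 320 kb and their adult partners one of 330 kb. Both sides of the TAD contributed. The adult TAD began at a lower coordinate in 75 pairs and at a higher one in 41, and it ended at a higher coordinate in 86 pairs and at a lower one in 27. It reached further out at both ends in 44 pairs, and the fetal TAD did so in 9. On 16 of the 18 chromosomes with such pairs more pairs had the longer TAD in the adult list, on 1 fewer, and on 1 as many.

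More pairs had the longer TAD in the adult list in each length band of the short pairs. By the mean of both lengths, the adult TAD was the longer in 11 pairs and the shorter in 4 at 110 to 190 kb, in 32 and 9 at 200 to 290 kb, in 42 and 19 at 300 to 390 kb, and in 19 and 9 at 400 to 440 kb. Of the unequal pairs these were 73.3% (44.9 to 92.2), 78.05% (62.4 to 89.4), 68.9% (55.7 to 80.1) and 67.9% (47.6 to 84.1), so the intervals of the first and last band included equal shares. In longer matched TADs the adult TAD was not more often the longer. Of 642 pairs with a mean of 450 kb to under 800 kb the adult TAD was longer in 239 and shorter in 249, of 672 pairs of 800 kb to under 2 Mb in 237 and 302, and of 126 pairs of 2 Mb or more in 38 and 62. The share of unequal pairs with the longer adult TAD was thus 49.0% (44.5 to 53.5), 44.0% (39.7 to 48.3) and 38.0% (28.5 to 48.3) in those bands, and 69.9% (62.3 to 76.9) in the 187 pairs with a mean under 450 kb. The interval of the 450 kb to under 800 kb band included equal shares. Adjoining TADs share a boundary, so a shift that lengthens a short TAD shortens its neighbour. The bands are thus not independent counts, and how much the longer bands mirror the short one was not tested. Lengths chose these bands and the lists have no replicates, so this is a description without a test.

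**Figure D2:**
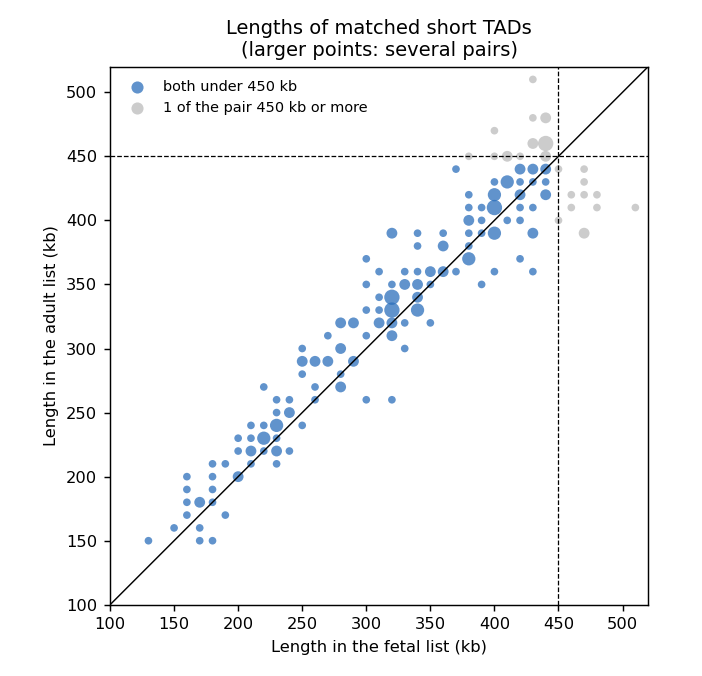
Length in the fetal list (horizontal axis, kb) against length in the adult list (vertical axis, kb) of matched TADs of which at least 1 was under 450 kb; larger points hold several pairs. Blue pairs were short in both lists, the dashed lines mark 450 kb and the solid line marks equal length, above which lie 104 of the 169 blue pairs and below which lie 41.

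The short TADs that lay inside a longer TAD were then set against that TAD. The 132 fetal ones had a median length of 250 kb and lay in adult TADs with a median of 820 kb (quartiles 487.5 and 1200), from 190 to 3540 kb. The 96 adult ones had a median of 220 kb and lay in fetal TADs with a median of 1050 kb (805 and 1517.5), from 140 to 3820 kb. A short TAD took up a median of 30.5% of the longer adult TAD and 22.7% of the longer fetal TAD. The longer TAD was itself under 450 kb for 27 fetal and 8 adult short TADs, and at least 2 Mb for 16 and 14.

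Most of these short TADs lay at an edge of the longer TAD. Of the 132 fetal ones, 106 shared exactly 1 end with it within 40 kb, or 80.3% (72.5 to 86.7), with 53 at the lower and 53 at the upper end. Of the 96 adult ones, 86 did so, or 89.6% (81.7 to 94.9), with 44 at the lower and 42 at the upper end. Of the TADs of all lengths inside 1 longer TAD, 298 of 350 fetal ones, or 85.1%, and 317 of 362 adult ones, or 87.6%, shared exactly 1 end with it. Of those of 450 kb or more, 88.1% of fetal and 86.8% of adult ones did. An edge position was therefore general among TADs inside a longer TAD and not particular to short TADs. Neither end was shared for 23 fetal and 9 adult short TADs, and both were for 3 and 1. The midpoint lay in the middle part of the longer TAD, from 25 to 75% of its length, for 46 of the 132 fetal and 14 of the 96 adult short TADs. A short TAD that fills much of the longer TAD has its midpoint there even at an edge. The fetal ones filled more of it (median 30.5% against 22.7%), so these counts do not compare position alone.

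**Figure D3:**
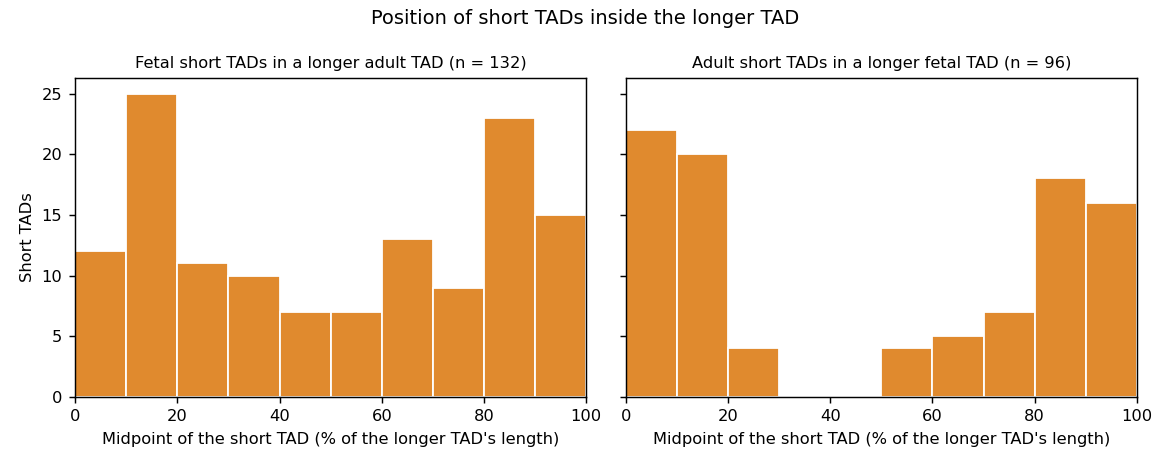
Number of short TADs (vertical axis) by the place of their midpoint along the longer TAD of the other list (horizontal axis, percent of its length), for 132 fetal short TADs in adult TADs (left) and 96 adult short TADs in fetal TADs (right). In both panels the counts are higher towards the edges, and 46 of the 132 fetal and 14 of the 96 adult midpoints lie between 25 and 75%. The place of a midpoint also depends on how much of the longer TAD the short one fills.

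The 132 fetal short TADs fell into 110 adult TADs, of which 91 held 1, 17 held 2, 1 held 3 and 1 held 4. The 96 adult ones fell into 91 fetal TADs, of which 86 held 1 and 5 held 2. A longer TAD was said to equal several neighbours if at least 2 TADs of the list with the short TADs overlapped it by over 40 kb. The first of them had to start, and the last to end, within 40 kb of its ends. Gaps between them were not checked. This was so for 61 of the 110 adult TADs, 51 of which equalled 2 fetal TADs, 9 equalled 3 and 1 equalled 5. It was so for 66 of the 91 fetal TADs, 61 of which equalled 2 adult TADs, 4 equalled 3 and 1 equalled 4.

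The adult TAD that held 4 fetal short TADs, named here after its value was seen, was chr2:66105001-68545000 and measured 2440 kb. Fetal TADs there measured 160, 430, 1500, 170 and 180 kb, so that short TADs lay on both sides of a long one. Of the 3 longest adult TADs that held a fetal short TAD, 2 held it at an edge. The longest, chr8:28615001-32155000, measured 3540 kb and stood against a short fetal TAD of 140 kb followed by one of 3410 kb. The next, chr15:28145001-31575000, measured 3430 kb and stood against a fetal TAD of 2990 kb followed by a short one of 440 kb. The third, chr3:58145001-61045000, measured 2900 kb and held a fetal short TAD of 220 kb between neighbours of 510 and 2170 kb, with no end in common. Of the longest fetal TADs that held an adult short TAD, the first (chr7:100275001-104095000, 3820 kb) held an adult short TAD of 340 kb away from both ends. The next, chr4:15815001-19445000, measured 3630 kb and was covered in the adult list by a short TAD of 430 kb and a neighbour of 3220 kb. The last, chr4:49545001-53025000, measured 3480 kb and was covered there by a short TAD of 110 kb and a neighbour of 3390 kb.

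All coordinates are those of mm9, counted from 1. The shortest TADs, at 110 kb, gave examples of the smallest pieces. The first 3 of the fetal list in genome order each lay inside an adult TAD: chromosome 2 from 126955001 to 127065000 in a TAD of 690 kb, chromosome 12 from 106865001 to 106975000 in one of 500 kb, and chromosome 14 from 48205001 to 48315000 in one of 930 kb. The first 3 of the adult list each lay across a fetal boundary at 10 or 20 kb from one of their ends, so that 90 or 100 kb fell in a longer fetal TAD. They spanned chromosome 4 from 49525001 to 49635000 (in the fetal TAD of 3480 kb above), chromosome 4 from 106935001 to 107045000 (in a TAD of 810 kb) and chromosome 6 from 4345001 to 4455000 (in one of 1010 kb).

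Some short TADs spread over several TADs took in at least 1 whole TAD of the other list. This was so for 20 of the 30 adult and 2 of the 10 fetal ones. The TADs so taken in were counted above among the short TADs inside 1 longer TAD. These counts thus show part of that class from the other side and are not a separate difference between the lists. In 25 of the 30 adult and 8 of the 10 fetal ones, the other list placed a boundary over 40 kb away from either end. The adult TAD chr2:9835001-10275000 (440 kb) equalled the sum of fetal TADs of 120 and 320 kb. The reverse was seen for the fetal TAD chr6:128395001-128715000 (320 kb), which stood against adult TADs of 150 and 180 kb. Both were named after their values were seen.

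The 6 short TADs without a TAD in the other list all fell where that list left a stretch empty or had ended. The fetal ones lay on chromosome 3 from 41565001 to 41835000 (270 kb) and on chromosome 4 from 89255001 to 89385000 (130 kb). The adult ones lay on chromosome 2 from 101285001 to 101495000 (210 kb), chromosome 4 from 44205001 to 44325000 (120 kb), chromosome 8 from 23085001 to 23235000 (150 kb) and chromosome 9 from 122255001 to 122635000 (380 kb). The one on chromosome 9 lay 2400 kb above the last fetal boundary of that chromosome.

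It was next asked whether short TADs lie next to each other. The share was close to that over TADs of all lengths in the fetal list and lower than it in the adult list. In the fetal list 94 of 331 short TADs adjoined another short TAD, or 28.4% (23.6 to 33.6), against 27.2% of fetal TADs of all lengths. In the adult list 65 of 311 did, or 20.9% (16.5 to 25.8), against 25.7% of all adult TADs, which lies inside that interval. Among TADs that were not short, the share was 26.96% in the fetal list (24.96 to 29.03) and 26.5% in the adult list (24.5 to 28.5). The adult value lies above the interval of adult short TADs, though the intervals overlapped. Counted by neighbour, 15.4% of the TADs adjoining a fetal short TAD were short (12.7 to 18.4), and 15.2% of those adjoining another fetal TAD (14.1 to 16.4). For the adult list these shares were 11.5% (9.10 to 14.3) and 14.8% (13.6 to 16.0). The median length of an adjoining TAD was 750 kb beside fetal short TADs and 790 kb beside other fetal TADs, and 820 and 760 kb in the adult list. Length chose the short TADs, so these shares are a description.

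Looking further along the chromosome, the TADs 2 places from a fetal short TAD were short in 16.5% of cases (13.7 to 19.5), and those 2 places from another fetal TAD in 14.9% (13.8 to 16.1). At 3 places the shares were 19.7% (16.7 to 22.9) and 14.4% (13.2 to 15.5). At 4 places they were 18.6% (15.7 to 21.9) and 14.5% (13.4 to 15.7), and at 5 places 16.6% (13.8 to 19.7) and 14.9% (13.7 to 16.1). Adult shares were 14.96% (12.2 to 18.03) and 14.2% (13.1 to 15.3) at 2 places, 15.9% (13.05 to 19.03) and 13.9% (12.8 to 15.1) at 3 places, 13.7% (11.1 to 16.7) and 14.2% (13.1 to 15.4) at 4, and 11.2% (8.74 to 14.0) and 14.6% (13.4 to 15.8) at 5. At 3 places in the fetal list the intervals were apart, at 4 they met, and in the other cases they overlapped. Every pair of short TADs was counted from both of its members, here and in the counts by neighbour above. The intervals of short TADs are therefore too narrow, and those at 3 places cannot decide whether the shares differ. The distance of 3 places was singled out after the values were seen.

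Runs of adjoining short TADs were mostly pairs. The fetal list had 237 short TADs without a short neighbour, 40 runs of 2, 3 runs of 3 and 1 run of 5. The adult list had 246 without a short neighbour, 27 runs of 2, 2 runs of 3 and 1 run of 5. The runs of 5 lay at different places and had different counterparts.

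The fetal run of 5 spanned chromosome 4 from 119855001 to 120905000, or 1050 kb, with TADs of 190, 180, 370, 140 and 170 kb. Adult TADs there measured 770 kb, over the first 3 fetal TADs, and 310 kb, over the last 2. The adult run of 5 spanned chromosome 17 from 23685001 to 24985000, or 1300 kb, with TADs of 110, 390, 400, 290 and 110 kb. Its 3 inner TADs were matched by fetal TADs of 400, 410 and 250 kb, which formed a fetal run of 3 from 23785001 to 24845000. Its outer TADs of 110 kb lay in fetal TADs of 2530 and 1090 kb, which continued beyond them. The chromosome 17 run was therefore present at both stages with the same core, and the chromosome 4 run was divided more finely in the fetal list.

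The other fetal and adult runs of 3 differed in how far the other list matched them. On chromosome 16 fetal TADs of 110, 230 and 110 kb from 3725001 to 4175000 lay in adult TADs of 820 and 1140 kb, and none had the same TAD in the adult list. This run was named after its values were seen. On chromosome 8 fetal TADs of 280, 200 and 140 kb from 28135001 to 28755000 met adult TADs of 280 and 200 kb with identical coordinates, and then the adult TAD of 3540 kb named above. On chromosome 5 adult TADs of 290, 310 and 430 kb from 120605001 to 121635000 met fetal TADs of 1010 and 470 kb. On chromosome 2 adult TADs of 120, 360 and 160 kb from 38615001 to 39255000 met fetal TADs of 470 and 150 kb.

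**Figure D4:**
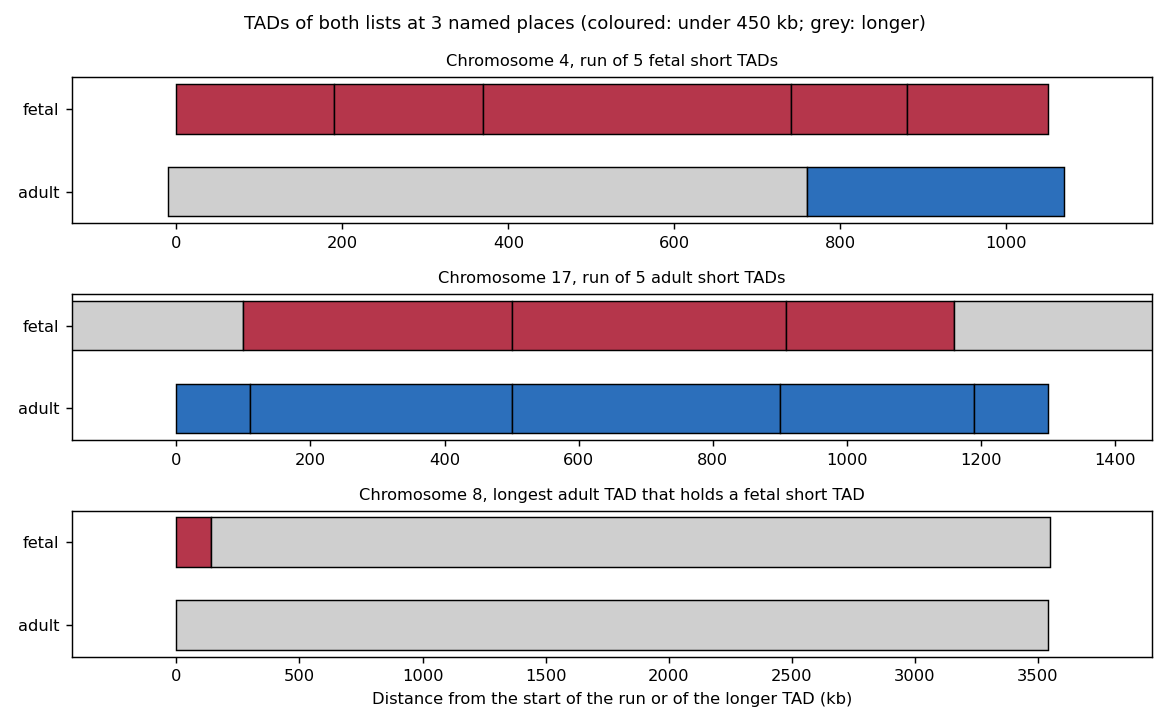
TADs of the fetal list (upper track) and of the adult list (lower track) at 3 places, against the distance in kb from the start of the run or of the longer TAD. Coloured TADs are under 450 kb and grey ones longer: the 5 fetal TADs on chromosome 4 stand over 2 adult TADs, the inner 3 of the 5 adult TADs on chromosome 17 stand under 3 fetal short TADs, and on chromosome 8 the fetal TAD of 140 kb stands at the edge of the adult TAD of 3540 kb.

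On the scale of megabases the number of short TADs differed between windows. Over 222 windows of 10 Mb, each at least 50% covered by TADs in both lists, a window held a mean of 1.44 fetal and 1.36 adult short TADs. There were none in 72 windows of the fetal list (32.4%) and 66 of the adult list (29.7%), and 45 windows had none in either. The fullest window held 7 fetal or 6 adult short TADs. The variance of the count, a measure of unevenness, was 1.44 times its mean for fetal and 1.16 times for adult short TADs. For all TADs it was 0.824 and 0.760 times. All TADs together fill most of a window, which bounds their count, so these values are no yardstick for short TADs. Windows with more TADs, short ones included, also held more short TADs (Pearson correlation 0.617 in the fetal and 0.543 in the adult list). Both lists had the same count in 106 windows, and the counts differed by 2 or more in 29, by 4 at most.

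The window with the most short TADs over both lists was on chromosome 6. The window of chromosome 6 that ends at 130 Mb held 7 fetal and 6 adult short TADs, among 16 and 15 TADs. Then came 3 windows with 10 each over both lists: 4 fetal and 6 adult in the window of chromosome 4 ending at 50 Mb, 7 and 3 in that of chromosome 4 ending at 130 Mb, and 5 and 5 in that of chromosome 17 ending at 30 Mb. The last 2 contain most or all of the runs of 5.

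The number of short TADs also differed between chromosomes. Counts per chromosome were small, and no test between chromosomes was made. Per 100 Mb covered by TADs there were 15.2 fetal and 14.8 adult short TADs. Over both lists the number was highest on chromosome 6, at 24.1, with 35 fetal short TADs of 147 (23.8%) and 33 adult of 151 (21.9%). Chromosome 17 followed at 23.5, with 20 of 91 (22.0%) and 20 of 94 (21.3%), and chromosome 8 at 22.7, with 26 of 116 (22.4%) and 24 of 114 (21.1%). The number was lowest on chromosome 19, at 4.48, with 2 of 49 (4.08%) and 3 of 57 (5.26%). Chromosome 15 was next lowest, at 7.29, with 8 of 96 (8.33%) and 5 of 93 (5.38%). The fetal list had more short TADs on 10 chromosomes, the adult list on 7, and 2 had equal numbers. Chromosome 14 had 21 fetal against 14 adult short TADs and chromosome 3 had 20 against 13, whereas chromosome 1 had 16 against 22. These 3 chromosomes, chromosome 8 above, and 9 and 11 below, were named after their values were seen.

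**Figure D5:**
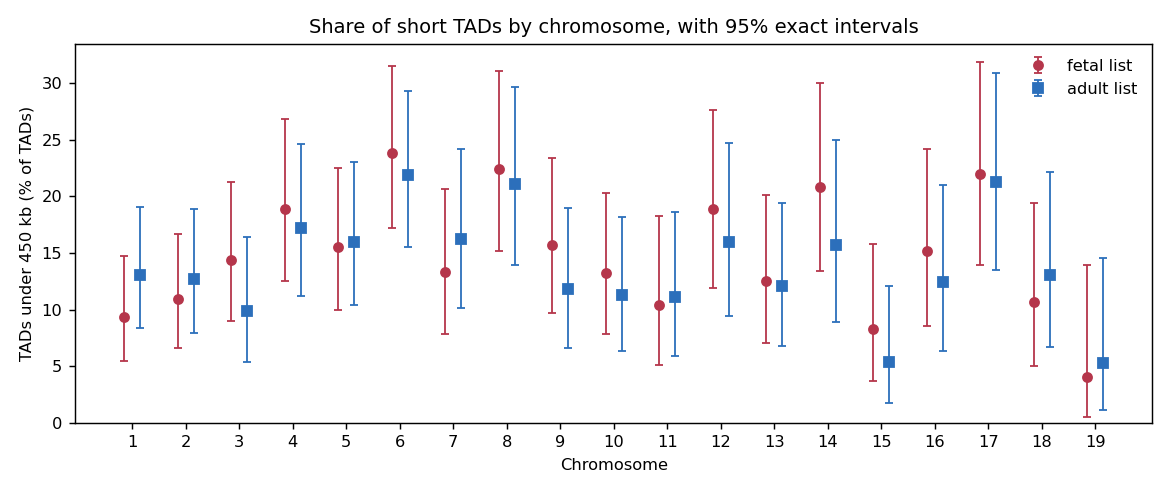
Share of TADs under 450 kb (vertical axis, percent of the TADs of a chromosome) on chromosomes 1 to 19, for the fetal list (circles) and the adult list (squares), with 95% exact Clopper-Pearson intervals. Chromosomes 6, 8 and 17 lie above 20% in both lists and chromosome 19 lies at 4.08% and 5.26%, and on every chromosome the intervals of both lists overlap.

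The share with the same TAD in the other list also varied by chromosome. On chromosome 11 it was 3 of 22 over both lists, or 13.6%, against 51.96% of its 204 TADs of all lengths. On chromosome 9 it was 26 of 33, or 78.8%, against 77.5% of its 240 TADs. The chromosome with the most short TADs, 6, had 36 of 68, or 52.9%, against 67.8% of its 298 TADs. Without chromosome 11 the share was 57.9% for fetal and 59.9% for adult short TADs.

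The edges of stretches without a TAD were counted last. Of the 96 TAD edges at such stretches in the fetal list, 10 belonged to short TADs, or 10.4%, against the 15.0% that short TADs made up of all fetal TADs. For adult TADs it was 14 of 106, or 13.2%, against 14.2%. Only 1 short TAD in each list was the first or last TAD of a chromosome.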

How the data were processed

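Per the labels, 4 mouse Hi-C samples, 2 from fetal liver HSCs and 2 from bone marrow HSCs, name 1 TAD list per cell type. The submitters' processing notes name HiC-Pro, GSNAP and the build mm9, with no role or version. The sources used here do not name the TAD caller, its settings or any pooling of samples. The values the authors deposited are the start and end of each TAD in base pairs, without a score or a count of contacts, so depth is unknown. Deeper maps may give more and sharper boundaries.

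Lengths, overlaps, neighbours and windows were computed in Python 3.11.15 (numpy 2.4.6, scipy 1.17.1). The code for the classes was checked on an altered copy of the adult list, where 311 of 311 short TADs were recovered. In that copy short TADs were left out, merged with a neighbour, cut at the middle or kept. No boundary was shifted, so this checked the code and not how well the definitions serve these lists. Shares carry 95% exact Clopper-Pearson intervals, which treat TADs as independent. The length limit, the classes and the alternatives were chosen with earlier results of these lists known. Named were, per list, the 3 longest runs, the 3 shortest TADs and the 3 longest holders of a short TAD, and over both lists the fullest windows and the extreme chromosomes. No p-value was computed. The gene and sequence tables at hand were of another build, GRCm38, and were not used.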

Additional observations from a re-analysis of the deposited data

How the results depend on the processing

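Of 76 alternative values, 53 stayed within the 95% interval of a share or within 1.5 times a count, and 23 moved. Chromosome X and all alternatives for the lengths of matched pairs were chosen after seeing the data. The difference in number, 20 more in the fetal list, became 0 under 500 kb and 11 at 200 kb or more. The same TAD was found for 69.5% of fetal and 68.5% of adult short TADs at an overlap of 50%, 43.2% and 42.8% at 90%, 45.0% and 45.7% with both ends within 20 kb, and for 50.4% of fetal TADs under 400 kb and 62.3% under 500 kb. The share inside a longer TAD became 34.1% for fetal TADs under 500 kb. With 50% covered it became 40.5% for adult short TADs, and was 42.9% for fetal ones. The lists were thus closer in this share than at 80% covered, where it was 39.9% for fetal and 30.9% for adult ones. With 0% covered, 1 fetal short TAD had no TAD in the other list. Under 500 kb, 35.9% of fetal and 31.4% of adult TADs had a short neighbour. Windows of 5 Mb left 50.4% and 50.4% without a short TAD. Ends were matched for 23.1% and 23.6% at identical positions, 66.9% and 68.2% within 20 kb, and 79.9% and 82.8% within 100 kb. Smaller windows, wider limits and looser criteria change these shares by construction. The share of unequal short pairs with the longer adult TAD stayed between 70.8% and 75.7% over 7 alternatives. No paired analysis was possible because each cell type has a single list, and no replicate could be left out for the same reason. Genes and CTCF motifs were not run, since no table of the build mm9 was at hand. The unknown depth limits every comparison.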

Other observations

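Chromosome X was outside the length comparison. It held 22 short TADs among 114 in the fetal list, or 19.3%, and 17 among 119 in the adult list, or 14.3%. With it, the share with the same TAD in the other list was 55.2% for fetal and 57.3% for adult short TADs.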
